A study of Arabidopsis thaliana with 8 samples.

Results

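Overexpression of *MYB5* was examined by RNA sequencing of whole *Arabidopsis thaliana* seedlings, in 2 libraries of *MYB5* OE (N2 and Q2) set against 3 libraries of wild type Col-0 (M2, P2 and S2), out of 8 libraries used here. The comparison takes in every gene of the count table except the transgene, which is 28495 of 28496 genes, and 20381 of these passed a filter on low counts and were tested. *MYB5* OE carries the *MYB5* coding sequence behind the constitutive CaMV 35S promoter in Col-0, so that the factor is made well outside the cells that normally make it. The labels do not say which transgenic line was sequenced, nor whether the 2 libraries came from the same line. Seedlings of both genotypes were harvested at 6 days of age after growth in vitro at 22 °C under a photoperiod of 8 h, and neither genotype had been given heat or any other stress. The remaining 3 libraries, of the *TT2* OE genotype grown in the same way, helped to estimate the spread. Through the rounds of libraries described below they also had a part in the fitted ratios. The fitted log2 ratio of *HSFA2*, for example, was 0.30 with them and 0.10 without them. Ratios within a round set *MYB5* OE libraries against Col-0 libraries alone.

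MYB5 is an R2R3-MYB transcription factor and a close relative of TT2. In the seed coat and in trichomes it works in an MBW complex, in which a MYB protein joins a bHLH protein such as TT8 and the WD-repeat protein TTG1 at the promoters of target genes. It is known for its part in seed coat mucilage, in trichome branching and, beside TT2, in the condensed tannins of the seed coat. The study asked whether these MYB factors also act on stress genes in vegetative tissue, among them the heat shock factor gene *HSFA2*, whose promoter holds site II elements. The comparison of the unstressed overexpressor with Col-0 shows which transcripts differ when *MYB5* is made throughout the seedling.

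Libraries differed far more by their round than by genotype. The codes run in alphabetical order through Col-0, *MYB5* OE and *TT2* OE, and each such run is called a round here: N2 belongs with M2 in round 1 and Q2 with P2 in round 2, while S2 of round 3 has no *MYB5* OE partner among the libraries used here. The labels name no rounds. *CCA1*, a morning gene of the circadian clock, stood at 3.91 CPM (counts scaled to library size) in N2 and 5.21 CPM in M2 of round 1, at 235 CPM in Q2 and 216 CPM in P2 of round 2, and at 694 CPM in S2. Between *MYB5* OE and Col-0, 0 of 14 clock genes passed the test (edgeR quasi-likelihood test, Benjamini-Hochberg adjustment) or an unadjusted p under 0.05, 0 were called by DESeq2, and their median log2 ratio was -0.02. The round was therefore a term of the fit, as was genotype, and each gene is also given as a ratio within round 1 (N2 over M2) and within round 2 (Q2 over P2). Total counts ran from 37575146 to 48428855 in the 5 libraries. The study describes the sequenced plants as independent biological replicates, while the labels tie no library to a culture or a line. In RNA from whole seedlings, fewer cells of a type and less RNA per cell cannot be told apart.

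The transgene was high in both overexpressor libraries. *MYB5* (AT3G13540, chromosome 3, from 4419960 to 4421751 in TAIR10.1) stood at 281 CPM in N2 and 252 CPM in Q2, against 0.0263 CPM in M2, 0.0831 CPM in P2 and 0.15 CPM in S2. The fitted log2 ratio was 11.84 (standard error 0.237, adjusted p = 4.2e-11), and the groups were far apart. Among the other genes 33 passed an adjusted p under 0.05, which is 0.162% of those tested: 14 rose (0.0687%) and 19 fell (0.0932%). Before adjustment, p was under 0.05 for 792 higher (3.89%) and 890 lower genes (4.37%). The study, with other software and an adjusted p under 0.05, called more genes in *MYB5* OE than the 33 called here. Both *MYB5* OE libraries lay above all 3 Col-0 libraries in 9 of the 14 genes that rose, against 3.78% of all genes, and below them in 13 of the 19 that fell, against 4.99%. Within rounds, 31 of the 33 genes moved the same way in both. The 33 were picked by a test on these same libraries, so these agreements describe the calls and are not separate support for them. Across all 20381 genes the ratios of the rounds followed each other only weakly (Pearson's r 0.18 and Spearman's rho 0.159 across genes, which are not independent replicates), and 55.7% of genes had the same sign in both. The SD of the log2 ratio was 0.348 in round 1 and 0.443 in round 2, so the wider scatter was in the round of Q2.

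**Figure D1:**
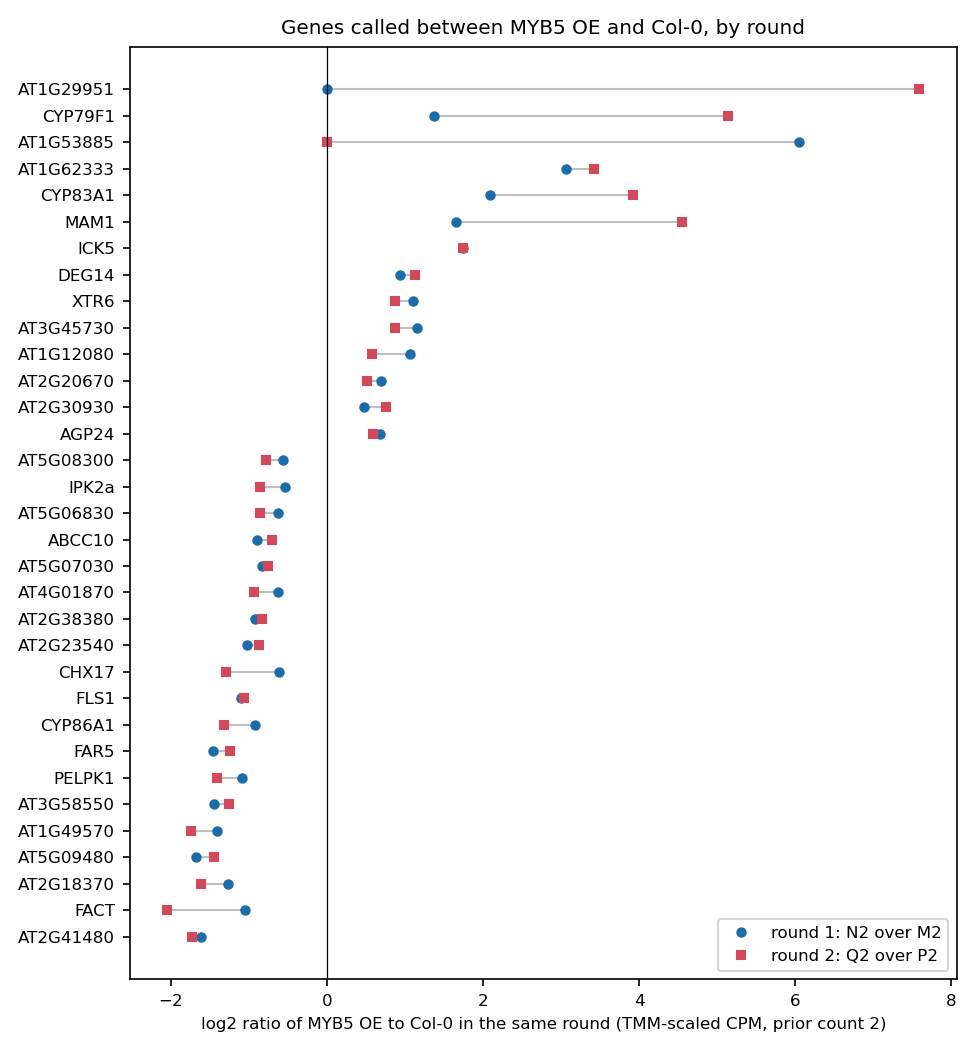
Genes that passed the test between *MYB5* OE and Col-0, ordered by fitted ratio; the x axis is the log2 ratio of *MYB5* OE to Col-0 in the same round (TMM-scaled CPM, prior count of 2), with circles for N2 over M2 and squares for Q2 over P2. Of the 33 genes shown, 31 have both points on the same side of 0, and the exceptions are AT1G29951 and AT1G53885, each with a point at 0.

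Transcripts of aliphatic glucosinolate synthesis were among the largest rises in *MYB5* OE. Aliphatic glucosinolates are sulfur-rich defence compounds made from methionine, whose side chain is first lengthened, then turned into the core structure and last modified. *CYP83A1* (AT4G13770), a cytochrome P450 that oxidises the aldoximes of the core pathway, stood at 1.5 CPM in N2 and 8.52 CPM in Q2, against 0.316 CPM in M2, 0.519 CPM in P2 and 0.171 CPM in S2. Both overexpressor libraries exceeded every Col-0 library, and Q2 was the higher of the pair. Its log2 ratio was 3.50 (standard error 0.362, adjusted p = 0.00321), with 2.09 in round 1 and 3.92 in round 2. *MAM1* (AT5G23010), which condenses the first intermediate of methionine elongation, had 1.75 CPM in N2 and 9.84 CPM in Q2, against 0.526 CPM in M2, 0.374 CPM in P2 and 0.214 CPM in S2. The groups did not overlap, and the log2 ratio was 3.44 (standard error 0.467, adjusted p = 0.0174). *CYP79F1* (AT1G16410), which converts the lengthened methionines into aldoximes, had 3 counts in N2 and 70 in Q2, against 0 in each of the 3 Col-0 libraries. With 3 counts as the floor for Col-0 as a group, this is at least 38.9-fold higher in *MYB5* OE, a bound that rests on Q2 (adjusted p = 0.0391). In *TT2* OE, by the same test against Col-0, *CYP83A1* and *MAM1* had log2 ratios of 2.12 and 2.14 (adjusted p = 0.0122 and 0.0404). There *CYP79F1* had 5, 24 and 8 counts (O2, R2 and U2), so it passed the low-count filter through overexpressor libraries alone. The direct test between the overexpressors passed for none of these genes.

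The plot of levels by library shows these genes beside those that fell in both rounds.

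**Figure D2:**
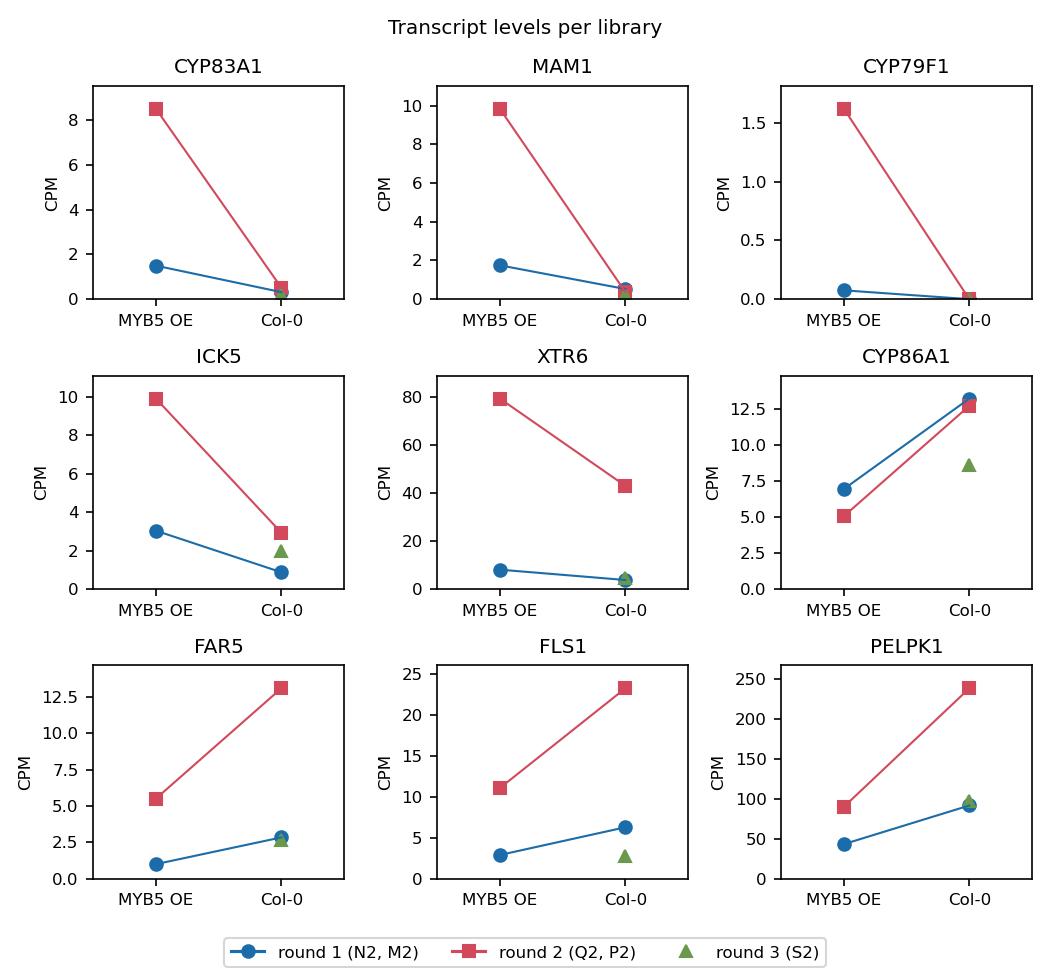
Transcript level in CPM (y axis, linear, from 0) of 9 genes in *MYB5* OE (left) and Col-0 (right); each point is a library, and a line joins the libraries of a round. *CYP83A1* reaches 8.52 CPM in Q2 and 1.5 CPM in N2 against at most 0.519 CPM in Col-0, while *CYP86A1* is lower in both overexpressor libraries (6.93 and 5.05 CPM) than in all 3 of Col-0 (8.57 to 13.2 CPM).

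The other genes of the pathway were taken from a list of 27, of which 22 could be tested. Of these, 3 rose, 0 fell, and 12 were higher at an unadjusted p under 0.05 (54.5%, against 3.89% of all genes), with a median log2 ratio of 0.49 against 0.00 over all genes. The list, like the other gene lists here, was written with earlier results of these data known. Such shares therefore describe it and do not test it. By step, the elongation genes *IPMDH1*, *IPMI-SSU2* and *IPMI-SSU3*, an isopropylmalate dehydrogenase and small subunits of the isomerase, had log2 ratios of 2.25, 2.52 and 1.93 (adjusted p = 0.105, 0.109 and 0.214). *IPMDH1* stood at 2.18 CPM in N2 and 8.89 CPM in Q2, against 1.45 CPM in M2, 0.707 CPM in P2 and 0.342 CPM in S2. For *BAT5*, the plastid transporter of the keto acids, the ratio was 1.53 (adjusted p = 0.104), and for *FMOGS-OX1*, which oxidises the side chain, it was 2.45 (adjusted p = 0.138). In round 1 *FMOGS-OX1* had 2 counts in N2 and 1 in M2, and *IPMI-SSU3* had a ratio of -0.12. Of the 22 genes, 14 had ratios above 0 and 8 below. Those below included *IPMI-LSU1*, *BCAT3*, *FMOGS-OX4* and *FMOGS-OX5*, at -0.24, -0.05, -0.22 and -0.10. Summed over the list, levels were 321 CPM in N2 and 434 CPM in Q2, against 342, 413 and 291 CPM in M2, P2 and S2. With DESeq2 the list had 5 calls, all higher, *CYP79F2* and *IPMI-SSU2* being the additions. *CYP79F2*, a tandem copy of *CYP79F1*, had 23 counts in N2 and 147 in Q2, against 11 in M2, 20 in P2 and 7 in S2, a log2 ratio of 2.30 (adjusted p = 0.1). How reads that fit both copies were counted is not given in the sources used here, so the levels of this pair are uncertain. In contrast, *MYB28*, the main activator of the pathway, stood at 18.8 CPM in N2 and 56.2 CPM in Q2, against 22.5 CPM in M2, 54.9 CPM in P2 and 33.1 CPM in S2, and its ratio was -0.17 (adjusted p = 0.814). The ranges of *MYB28* overlapped. *MYB29*, a second activator, and *MAM3*, the neighbour of *MAM1*, had ratios of -0.02 and -0.31. The list as a whole moved mainly in round 2, with medians of 0.12 in round 1 and 0.85 in round 2, and 10 of the 22 genes were above 0 in both rounds, against 26.9% of all genes. With Q2 left out 6 of its genes were higher at an unadjusted p under 0.05 (median 0.08), and with N2 left out 14 were (median 1.09). Indole glucosinolate genes, which start from tryptophan, had 0 of 16 called, 3 higher and 1 lower at an unadjusted p under 0.05, and a median of 0.03. The one with the smallest p, *IGMT1*, a methyltransferase of the indole ring, had a ratio of 0.49 (adjusted p = 0.0838), and DESeq2 called it higher and *CYP81F4*, a hydroxylase of the same branch, lower.

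The scatter of the rounds sets these genes beside those of root suberin.

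**Figure D3:**
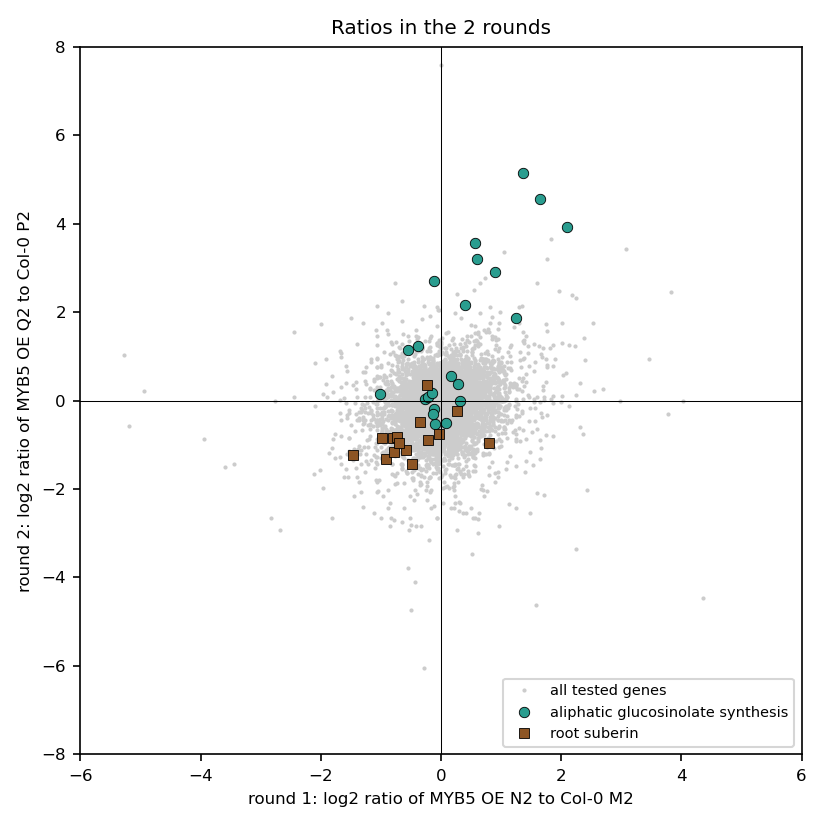
Log2 ratio of *MYB5* OE to Col-0 in round 1 (x axis, N2 over M2) against round 2 (y axis, Q2 over P2) for all 20381 tested genes (grey; 2 lie outside the axes), with the 22 aliphatic glucosinolate genes as circles and the 15 root suberin genes as squares. The glucosinolate genes spread upward along the axis of round 2, and 12 of the 15 suberin genes lie below 0 on both axes.

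Promoter sequence was read as the 300 bases before the annotated gene start (TAIR10.1, RefSeq annotation), which could be had for 20299 of 20382 genes, or 99.6%. MYB factors of the MBW complexes are known to bind a MYB core and an AC-rich element, and the letters searched on both strands were CNGTTA or CNGTTG for the MYB core and ACCTACC or ACCAACC or ACCTAAC for the AC element. The study gives both motifs in a wider form, so the matches counted here leave out some sites of that form. An AC element was present in 9 of the 22 aliphatic glucosinolate promoters (40.9%), against 7.27% of all promoters of this length. It was in 7 of the 12 genes that were higher at an unadjusted p under 0.05 and in 2 of the other 10. The promoter of *CYP83A1* (chr4:7992430-7992729, minus strand) is printed because this gene had the smallest adjusted p among the rises, with its AC element in capitals (here on the opposite strand), 65 bases before the gene start.
CYP83A1: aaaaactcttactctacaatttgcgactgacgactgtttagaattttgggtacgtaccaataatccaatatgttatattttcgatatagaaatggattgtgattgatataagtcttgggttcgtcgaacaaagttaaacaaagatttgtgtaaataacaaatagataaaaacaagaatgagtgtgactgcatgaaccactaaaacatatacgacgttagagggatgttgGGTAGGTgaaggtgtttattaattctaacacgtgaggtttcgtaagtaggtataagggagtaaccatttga
The promoters of *MAM1* and *CYP79F1* held no match to the searched letters of the AC element or the MYB core in this window. That of *CYP79F1* does hold TTGTTA, which fits the wider MYB core of the study. *MYB5* OE therefore had higher transcripts of genes with and without these letters, and a match is a description, not a bound site.

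*ICK5* (AT1G49620, also called *KRP7*), an inhibitor of cyclin-dependent kinases that holds back the cell cycle, was the rise, among the 14, that differed least between rounds. It stood at 3.03 CPM in N2 and 9.91 CPM in Q2, against 0.868 CPM in M2, 2.93 CPM in P2 and 1.99 CPM in S2. Both overexpressor libraries exceeded all of Col-0, although N2 exceeded P2 only narrowly, and the ratio was 1.75 in round 1 and 1.74 in round 2. The fitted ratio was 1.81 (standard error 0.22, adjusted p = 0.00884). Of the 7 genes of this family, *ICK5* was the one called, and *KRP1* had a ratio of 0.36 (adjusted p = 0.564). *TT2* OE did not share this rise: the ratio of *TT2* OE to *MYB5* OE was -1.48 on the log2 scale (adjusted p of the difference 0.0176). The gene lies on chromosome 1 from 18365336 to 18366744 on the minus strand, and its promoter (chr1:18366745-18367044) holds 1 match to the MYB core as searched here, in capitals, 60 bases before the gene start.
ICK5: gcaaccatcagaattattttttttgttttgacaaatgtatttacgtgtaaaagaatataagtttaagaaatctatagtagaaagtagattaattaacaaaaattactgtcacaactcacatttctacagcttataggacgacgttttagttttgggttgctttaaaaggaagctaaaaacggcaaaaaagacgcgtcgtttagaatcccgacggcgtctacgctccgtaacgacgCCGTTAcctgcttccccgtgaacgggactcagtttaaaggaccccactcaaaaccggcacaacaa
The neighbouring F-box gene AT1G49610, 2143 bases away, had too few counts to be tested, and was singled out after its values had been seen. It had 7 counts in N2 and 24 in Q2, against 0 in M2, 1 in P2 and 2 in S2, a ratio of depth-scaled counts of 16.5 (95% counting interval 5.15 to 84.5). On the same side, 16286 bases from *ICK5* and with 3 tested genes between, the peroxidase gene AT1G49570 fell, as described with the other peroxidases.

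The remaining genes that rose were mostly of the cell wall or of unnamed function. *XTR6*, which remodels xyloglucan in the wall, stood at 8.01 CPM in N2 and 79.2 CPM in Q2, against 3.71 CPM in M2, 42.9 CPM in P2 and 4.66 CPM in S2. Groups overlapped across rounds but not within them, and the log2 ratio was 0.93 (standard error 0.123, adjusted p = 0.0154). *AGP24*, a gene of an arabinogalactan protein of the cell surface, had 45.8 CPM in N2 and 60.7 CPM in Q2, against 28.6 CPM in M2, 40.2 CPM in P2 and 36.6 CPM in S2, a ratio of 0.61 (adjusted p = 0.0452). Its libraries did not overlap. *DEG14*, a protease of the Deg family, had 9.01 CPM in N2 and 9.03 CPM in Q2, against 4.68 CPM in M2, 4.11 CPM in P2 and 1.97 CPM in S2, so that both were above every Col-0 library (ratio 1.04, adjusted p = 0.0346). AT1G62333, annotated as an uncharacterized protein, had 14 counts in N2 and 20 in Q2, against 0 in all of Col-0, which is at least 18.1-fold higher with the same group floor (adjusted p = 0.0452). AT1G12080, AT2G20670, AT2G30930 and AT3G45730 rose by 0.87, 0.66, 0.62 and 0.90 (adjusted p from 0.0356 to 0.0452), at levels from 24.7 to 399 CPM in *MYB5* OE. AT1G12080 overlapped between groups, with 121 CPM in Q2 against 128 CPM in S2. So did AT2G30930, with 166 CPM in N2 against 236 CPM in P2. AT2G20670 and AT3G45730 did not overlap.

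The calls of 2 of the 14 genes rested on 1 overexpressor library. AT1G29951 had 393 counts in Q2 and 0 in N2, against 0 in each Col-0 library, while AT1G29950, the bHLH gene next to it by locus number, had 1461 counts in N2 and 1016 in Q2 against 1472, 2014 and 2290 in M2, P2 and S2. AT1G53885 had 124 counts in N2 and 0 in Q2, against 113 in S2 and 0 in M2 and P2. A gene of the same annotation, AT1G53903, had 398 counts in N2 and 253 in Q2, against 502 in M2, 246 in P2 and 103 in S2. In each of the pair, 1 overexpressor library held all of the reads of its group, and how reads of alike genes were divided is not given in the sources used here.

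A pair of suberin genes fell in *MYB5* OE, and most others of the pathway had ratios below 0 without passing the test. Suberin is the lipid polyester of the root endodermis, built from long-chain fatty acids, alcohols and ferulate and exported to the wall. Of 15 listed genes, all tested, 2 fell, 0 rose, 12 were lower at an unadjusted p under 0.05 (against 4.37% of all genes) and the median log2 ratio was -0.90. In both rounds the medians were negative, -0.59 in round 1 and -0.90 in round 2, and 12 genes were below 0 in both, against 28.8% of all genes. This list too was written with earlier results of these data known, so the shares describe it and do not test it. *CYP86A1* (AT5G58860), which hydroxylates the fatty acids at their end, stood at 6.93 CPM in N2 and 5.05 CPM in Q2, against 13.2 CPM in M2, 12.7 CPM in P2 and 8.57 CPM in S2. Both were below every Col-0 library, and the log2 ratio was -1.15 (standard error 0.172, adjusted p = 0.0295). *FAR5* (AT3G44550), which reduces fatty acids to alcohols, had 1 CPM in N2 and 5.51 CPM in Q2, against 2.84 CPM in M2, 13.1 CPM in P2 and 2.69 CPM in S2. Its groups overlapped because Q2 and P2 were both high, and the ratio was -1.30 (standard error 0.19, adjusted p = 0.0284), with -1.46 and -1.24 in the rounds. Reads of *FAR5* could also fit its tandem copy *FAR4*, which had a ratio of -0.41 (adjusted p = 0.591). In *TT2* OE, by the same test against Col-0, *CYP86A1* and *FAR5* fell as well, with log2 ratios of -1.06 and -1.16 (adjusted p = 0.0043 and 0.00526). The direct test between the overexpressors passed for neither gene.

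The promoters of this pair are shown as those of the suberin genes that passed the test. That of *CYP86A1* (chr5:23768112-23768411, minus strand) has 1 site II element, 266 bases before the start, and that of *FAR5* (chr3:16137276-16137575, plus strand) has 1 MYB core, 9 bases before the start, each in capitals and each on the opposite strand.
CYP86A1: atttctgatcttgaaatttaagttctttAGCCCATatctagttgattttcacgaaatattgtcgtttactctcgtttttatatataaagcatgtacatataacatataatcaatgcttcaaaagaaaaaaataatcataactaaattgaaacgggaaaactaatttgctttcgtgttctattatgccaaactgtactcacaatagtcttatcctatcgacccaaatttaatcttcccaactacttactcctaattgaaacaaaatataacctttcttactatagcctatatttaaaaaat
FAR5: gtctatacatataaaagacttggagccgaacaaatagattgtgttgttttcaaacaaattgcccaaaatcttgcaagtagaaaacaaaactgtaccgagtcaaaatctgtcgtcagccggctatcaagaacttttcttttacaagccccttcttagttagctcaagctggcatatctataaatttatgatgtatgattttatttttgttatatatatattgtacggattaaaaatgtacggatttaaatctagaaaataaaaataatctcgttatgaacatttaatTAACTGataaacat
An AC element was in 3 of the 15 suberin promoters (20.0%), against 7.27% of all, and a MYB core in 8 (53.3%), against 47.3%.

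Further suberin genes had ratios of like size without passing. The exporter genes *ABCG6*, *ABCG20* and *ABCG2* had log2 ratios of -1.01, -0.94 and -0.90 (adjusted p = 0.0532, 0.178 and 0.139). *ABCG6* stood at 4.13 CPM in N2 and 24.3 CPM in Q2, against 6.26 CPM in M2, 53 CPM in P2 and 21 CPM in S2, lower than its partner in each round. *GPAT5*, which joins the acids to glycerol, had a ratio of -0.86 (adjusted p = 0.07), and *CYP86B1*, a hydroxylase of very long acids, one of -0.97 (adjusted p = 0.201). DESeq2 called 4 of the list lower, *ABCG6* and *GPAT5* among them, and edgeR's likelihood ratio test 8. *KCS20*, an elongase also used for other lipids, and *FAR1* had ratios of 0.04 and -0.01. The list held fewer such genes when a library of round 2 was left out: 6 were lower at an unadjusted p under 0.05 without P2 and 7 without Q2. Without the round in the fit 1 was.

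Beside these, *FACT* (AT5G63560), which esterifies fatty alcohols with caffeate in root waxes, fell by 1.68 on the log2 scale (standard error 0.271, adjusted p = 0.038), with 1.73 CPM in N2 and 1.27 CPM in Q2, against 3.63 CPM in M2, 5.4 CPM in P2 and 4.77 CPM in S2. The GDSL lipase gene AT2G23540 fell by 0.95 (adjusted p = 0.0174), with 6.63 CPM in N2 and 9.12 CPM in Q2, against 13.5 CPM in M2, 16.8 CPM in P2 and 10.6 CPM in S2. Neither gene overlapped between groups. Lipid-transfer proteins AT2G18370 and AT3G58550, of a family that carries lipids to the cell surface, fell by 1.60 and 1.46 (adjusted p = 0.0356 for each). AT2G18370 stood at 2.1 CPM in N2 and 2.48 CPM in Q2, against 5.16 CPM in M2, 7.65 CPM in P2 and 7.08 CPM in S2. Of the class III peroxidases, wall enzymes that use hydrogen peroxide, AT2G41480, AT1G49570 and AT2G38380 fell by 1.76, 1.49 and 0.89 (adjusted p = 0.0452, 0.0284 and 0.0222). The most abundant of them, AT2G38380, had 19.8 CPM in N2 and 21.1 CPM in Q2, against 37.5 CPM in M2, 37.5 CPM in P2 and 43.1 CPM in S2, clearly apart. AT1G49570 overlapped, with 3.38 CPM in N2 and 1.23 CPM in Q2, against 9.02 CPM in M2, 4.22 CPM in P2 and 1.95 CPM in S2.

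Markers of other cell types were given for the same libraries. Casparian strip genes, which mark the young endodermis, had 0 of 8 called, 0 at an unadjusted p under 0.05, 7 above 0 and a median of 0.20. Summed over the list they stood at 162 CPM in N2 and 136 CPM in Q2, against 123 CPM in M2, 130 CPM in P2 and 118 CPM in S2, and no member was at 0 in any library. Root hair genes had 0 of 16 called and a median of 0.08. At an unadjusted p under 0.05, 4 of them were higher (25%, against 3.89% of all genes) and 0 lower (against 4.37%). Their sums were 208 CPM in N2 and 399 CPM in Q2, against 183, 325 and 242 CPM in M2, P2 and S2. Leaf photosynthesis genes had 0 of 10 called, 0 at an unadjusted p under 0.05 and a median of 0.04, with sums of 65400 CPM in N2 and 71500 CPM in Q2, against 62100, 64400 and 63000 CPM in M2, P2 and S2. DESeq2 called 0 genes in any of these 3 lists, and all 3 sums were higher in N2 than in M2 and in Q2 than in P2. The suberin list summed to 227 CPM in N2 and 903 CPM in Q2, against 273, 846 and 397 CPM in M2, P2 and S2, most of it from *KCS20*, with 166 CPM in N2 and 772 CPM in Q2, against 196, 604 and 288 CPM. Whether organ or cell type shares have a part in the suberin values was not tested.

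A stretch of chromosome 5 held more than its share of the genes that fell. Between AT5G06000 and AT5G10000, 312 of 409 genes were tested, 7 fell and 0 rose, and 253 had a log2 ratio below 0. The median over the stretch was -0.32, with -0.33 in round 1 and -0.30 in round 2, against 0.00 over all other genes. At an unadjusted p under 0.05, 146 genes of the stretch were lower (46.8%), against 3.71% elsewhere. The stretch was seen in earlier results of these same data, so these shares describe it and do not test it. *PELPK1* (AT5G09530), a proline-rich wall protein, had 43.2 CPM in N2 and 89.9 CPM in Q2, against 91.5 CPM in M2, 238 CPM in P2 and 96.6 CPM in S2, below all Col-0 libraries (ratio -1.35, standard error 0.156, adjusted p = 0.00653). Near it, AT5G09480, also annotated as a hydroxyproline-rich glycoprotein, had 4.41 CPM in N2 and 3.71 CPM in Q2, against 14.2 CPM in M2, 10.2 CPM in P2 and 8.38 CPM in S2 (ratio -1.56, standard error 0.158, adjusted p = 0.00321). These are members of a family of alike genes, and reads that fit several of them may have been divided between them. The flavonol synthase gene *FLS1* (AT5G08640) also lies in the stretch, and had 2.9 CPM in N2 and 11.1 CPM in Q2, against 6.29 CPM in M2, 23.3 CPM in P2 and 2.78 CPM in S2. It was lower than its partner by 1.10 and 1.06 in the rounds, but S2 was as low as N2 (ratio -1.05, adjusted p = 0.0284). AT5G06830, the aspartyl protease gene AT5G07030, the inositol polyphosphate kinase gene *IPK2a* and the succinyl-CoA ligase gene AT5G08300 fell by 0.73, 0.82, 0.67 and 0.65. In *TT2* OE, compared with the same Col-0 libraries, the ratios of *PELPK1*, AT5G09480 and *FLS1* were -1.35, -0.93 and -0.77. The other 12 genes that fell lie outside this stretch.

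**Figure D4:**
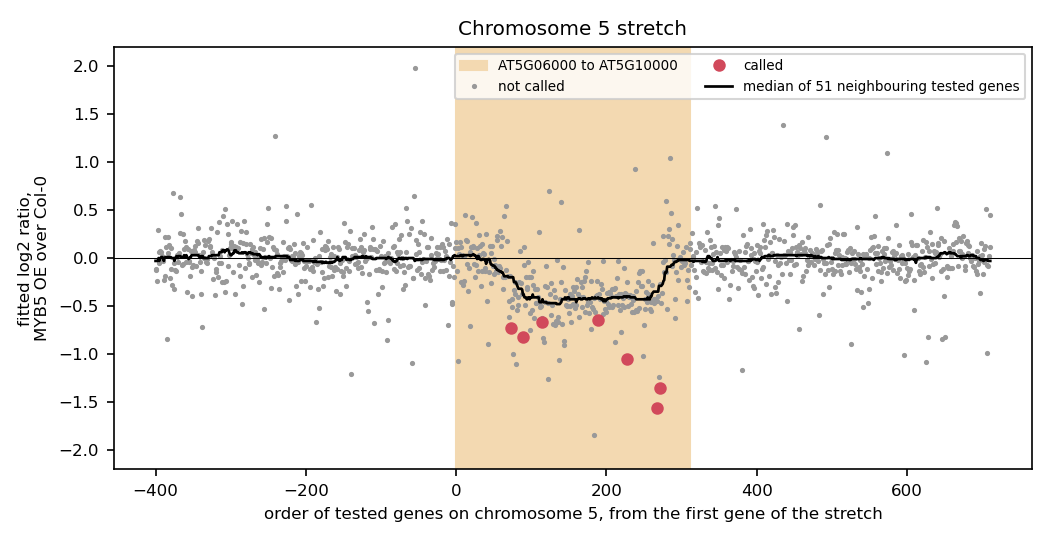
Fitted log2 ratio of *MYB5* OE to Col-0 (y axis) for tested genes of chromosome 5 in gene order, counted from the first gene of the stretch (x axis); shading marks AT5G06000 to AT5G10000, large red points are genes that passed the test and the line is the median of 51 neighbouring genes (4 genes lie outside the axis). The line falls below 0 within the shaded stretch, whose median is -0.32, and lies near 0 on both sides.

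The heat stress genes that the study turned to did not pass the test in *MYB5* OE. The study reported raised *HSFA2* in *MYB5* overexpressor lines from Q-PCR, which is another measure. It listed *HSFA3*, *HSFA7A* and *MBF1C* as higher in *TT2* OE, which is another genotype. *HSFA2*, a heat shock factor that extends the heat response, stood at 0.451 CPM in N2 and 3.27 CPM in Q2, against 0.368 CPM in M2, 3.26 CPM in P2 and 0.898 CPM in S2. Its groups overlapped, and the log2 ratio was 0.30 with a standard error of 0.359 (adjusted p = 0.874). *HSFA3*, a factor later in the same cascade, had 4.46 CPM in N2 and 2.83 CPM in Q2, against 2.84 CPM in M2, 2.08 CPM in P2 and 3.31 CPM in S2, with a ratio of 0.55 (adjusted p = 0.404). *MBF1C*, a coactivator in the heat response, had 6.61 CPM in N2 and 21.9 CPM in Q2, against 4.73 CPM in M2, 14.9 CPM in P2 and 22.9 CPM in S2, with a ratio of 0.61 (adjusted p = 0.113). *HSFA7A* had a ratio of 0.32 (adjusted p = 0.478). Each of these was above its Col-0 partner in round 1 and, apart from *HSFA2* (ratio 0.00), in round 2. DESeq2 called *MBF1C* higher. Of 15 heat shock factors and partners tested, 0 were called by edgeR's quasi-likelihood test, 4 were higher (26.7%, against 3.89% of all genes) and 1 lower (against 4.37%) at an unadjusted p under 0.05, and the median was 0.11. Among 17 chaperone genes, 0 were called by either tool, 1 was higher at an unadjusted p under 0.05 (*HSP23.5*, ratio 0.69) and the median was 0.16. Counts of *HSFA2* were low in round 1, with 18 in N2 and 14 in M2, so its ratio there is uncertain. In round 2 it had 141 counts in Q2 and 157 in P2.

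Site II elements were searched as ATGGGCC or ATGGGCT or TTGGGCC or TTGGGCT on both strands, and 21.1% of all promoters held one. The element was in 1 of 13 promoters of genes that rose (7.69%), *DEG14*, and in 1 of 19 of genes that fell (5.26%), *CYP86A1*. The study reports this element as enriched in promoters of genes raised in *MYB5* OE, from its own, longer list of called genes. Its motif search in genes raised in *TT2* OE used a longer stretch before the gene than the one read here. Sets of 13 and 19 promoters are too small to decide on enrichment or depletion, which was not tested. The promoters of *DEG14* (chr5:9792379-9792678, minus strand) and *HSFA2* (chr2:11135324-11135623, plus strand) are set together because each has 2 site II elements, in capitals (on either strand) as is the MYB core of *DEG14*, which rose while *HSFA2* was not called.
DEG14: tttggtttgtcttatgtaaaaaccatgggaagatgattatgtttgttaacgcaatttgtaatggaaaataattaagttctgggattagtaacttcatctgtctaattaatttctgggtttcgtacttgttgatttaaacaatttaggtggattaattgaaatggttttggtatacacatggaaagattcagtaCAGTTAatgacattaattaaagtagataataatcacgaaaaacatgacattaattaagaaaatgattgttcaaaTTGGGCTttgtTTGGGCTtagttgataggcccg
HSFA2: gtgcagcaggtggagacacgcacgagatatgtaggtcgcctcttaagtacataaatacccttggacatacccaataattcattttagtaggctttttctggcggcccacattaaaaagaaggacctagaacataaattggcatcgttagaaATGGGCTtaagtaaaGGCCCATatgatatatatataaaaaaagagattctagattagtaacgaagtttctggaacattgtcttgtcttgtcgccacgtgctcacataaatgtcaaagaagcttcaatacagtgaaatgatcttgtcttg
In *DEG14* the site II elements lie 16 and 27 bases before the gene start, and in *HSFA2* 128 and 143 bases before it. The study marks more site II elements in the *HSFA2* promoter than this search found, and gives larger distances. The bases beside the 2 found here match those of the yeast bait that the study took from this promoter. They are thus among its elements, with distances counted from another start. E-boxes (CANNTG), the letters bound by bHLH partners, were in 11 of the 13 promoters of genes that rose (84.6%) and in 12 of the 19 of genes that fell (63.2%), against 62.9% of all promoters. A MYB core was in 7 of 13 (53.8%) and 9 of 19 (47.4%), against 47.3%.

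Genes of the seed coat programme were for the most part not called. *TT8*, the bHLH partner gene of the complex, had 16 counts in N2 and 35 in Q2, against 3 in M2, 1 in P2 and 3 in S2, a ratio of depth-scaled counts of 11.6 (95% counting interval 5.26 to 30.4). Both overexpressor libraries were above all of Col-0, with an adjusted p of 0.0714, and DESeq2 called the gene higher. *TTG1*, the WD-repeat partner, had 46.4 CPM in N2 and 55.6 CPM in Q2, against 46 CPM in M2, 51.1 CPM in P2 and 44.3 CPM in S2, a ratio of 0.04 with a standard error of 0.0992 (adjusted p = 0.942). *TTG2*, a WRKY factor that MBW complexes activate, had a ratio of 0.59 (adjusted p = 0.475). *BAN*, the anthocyanidin reductase of tannin synthesis, had 1 count in Q2 and 0 in the other 4 libraries, which is under the floor, so no fold is given. *DFR* and *LDOX*, the enzymes before it, had ratios of 0.43 and -0.34 with standard errors of 0.844 and 0.727, at levels under 0.5 CPM in each library. From its own RNA sequencing test, the study listed *LDOX* and *TTG2* as higher and *FLS1* as lower in both overexpressors. Its discussion gives *LDOX* as raised in *TT2* OE only. Of these genes, *FLS1* alone passed the test used here. Of 7 late flavonoid and tannin genes tested, 0 were called by edgeR or DESeq2 and 0 reached an unadjusted p under 0.05. Seed coat mucilage genes, listed by their part in mucilage and not as targets of MYB5, had 0 of 10 called by either tool. None reached an unadjusted p under 0.05, and the median was -0.03. Among early flavonoid genes, *FLS1* fell, and *TT4*, the chalcone synthase, had 7.11 CPM in N2 and 46.1 CPM in Q2, against 19.3 CPM in M2, 74.8 CPM in P2 and 7.89 CPM in S2 (ratio -0.82, adjusted p = 0.507). In the fit of the 5 libraries of *MYB5* OE and Col-0 alone, *TT4* passed as lower (ratio -1.02, adjusted p = 0.00275), as it did in no other fit tried. The list of 11 early genes had a median of -0.19, with 3 genes lower at an unadjusted p under 0.05.

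Defence and storage genes gave 0 calls with edgeR's quasi-likelihood test. *PR1*, a salicylate marker, had 3.03 CPM in N2 and 0.857 CPM in Q2, against 0.631 CPM in M2, 0.125 CPM in P2 and 0.235 CPM in S2, so that both were above Col-0 (ratio 2.42, standard error 0.431, adjusted p = 0.0569). *ALD1*, which starts pipecolate synthesis, had 0.526 CPM in N2 and 0.255 CPM in Q2, against 1.63 CPM in M2, 0.956 CPM in P2 and 1.28 CPM in S2 (ratio -1.91, adjusted p = 0.153). Of 19 salicylate, pipecolate and camalexin genes, 0 were called, with 3 higher and 3 lower at an unadjusted p under 0.05 and a median of -0.04. DESeq2 called 2 of them higher, *PR1* and the camalexin P450 gene *CYP71A12*. Jasmonate genes had 0 of 14 called by either tool, 0 at an unadjusted p under 0.05 and a median of -0.02. Phenylpropanoid and lignin genes had 0 of 18 called, 3 lower at an unadjusted p under 0.05 and a median of -0.09. *PAL1*, which opens the pathway, had a ratio of -0.44 (adjusted p = 0.106) and was called lower by DESeq2. Anthocyanin decoration genes had 0 of 5 called, 1 lower at an unadjusted p under 0.05 and a median of -0.06. The MBW complex and epidermal regulators had 0 of 15 called, 3 higher and 1 lower at an unadjusted p under 0.05, and a median of 0.16. Seed storage and maturation genes, of which 7 of 17 passed the filter, summed to 12 CPM in N2 and 8.92 CPM in Q2, against 9.13, 9.58 and 10.6 CPM in M2, P2 and S2.

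**Figure D5:**
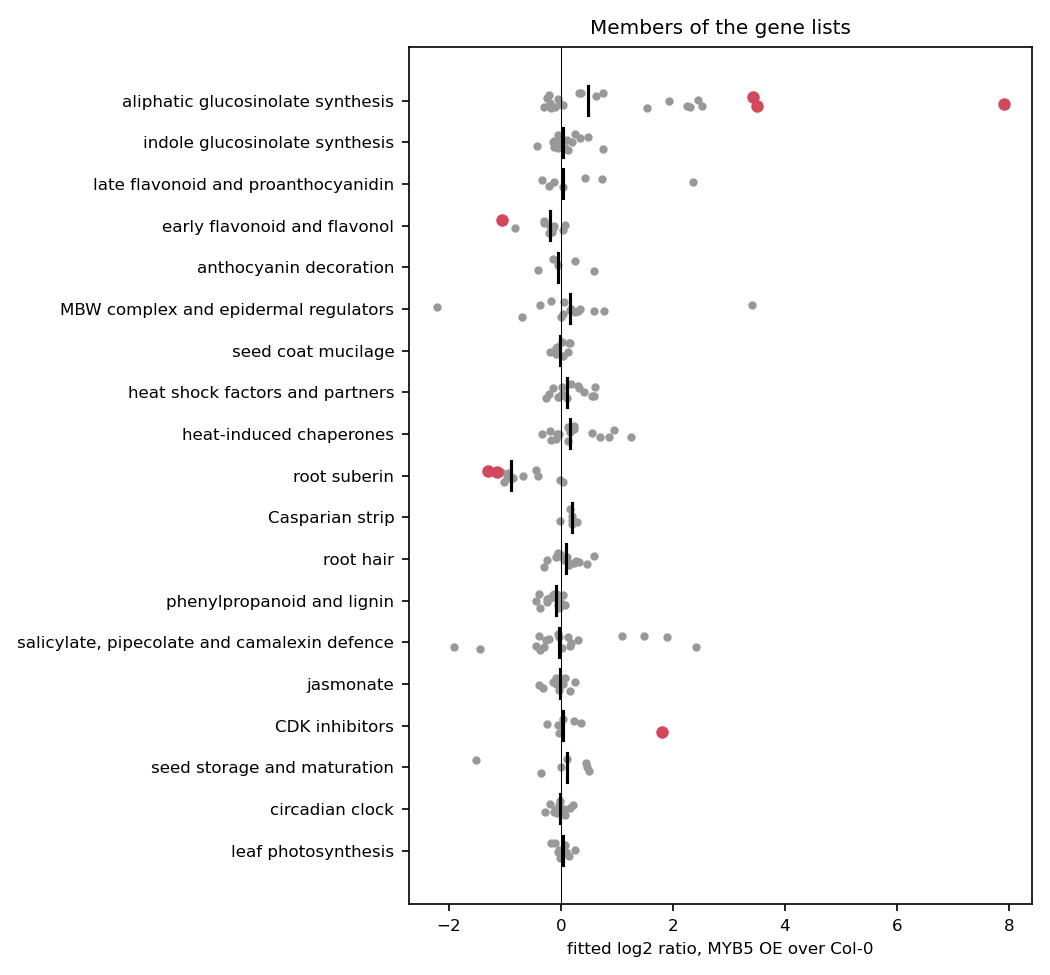
Fitted log2 ratio of *MYB5* OE to Col-0 (x axis) for the tested members of 19 gene lists (rows); each point is a gene, large red points passed the test and black bars are list medians. The medians of aliphatic glucosinolate synthesis (0.49) and root suberin (-0.90) lie farthest from 0; the fitted ratio of *CYP79F1* at the far right depends on the prior count, since Col-0 had 0 counts.

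The calls depended on single libraries of rounds 1 and 2, most of all on P2. With Col-0 P2 left out, 1 of the 33 was still called, AT5G09480 (adjusted p = 0.0408), and *CYP83A1*, *ICK5* and *PELPK1* each had an adjusted p of 0.0506. With *MYB5* OE Q2 left out, 6 of 32 were still called, among them *XTR6*, AT5G09480 and *PELPK1*, while *CYP83A1* had a log2 ratio of 2.77 (adjusted p = 0.115), *ICK5* one of 1.63 (adjusted p = 0.167), *MAM1* one of 2.33 (adjusted p = 0.219) and *CYP86A1* one of -1.10 (adjusted p = 0.171). Without N2, M2 and R2, 7 of 33, 12 of 33 and 11 of 31 were still called. Leaving out S2, O2 or U2 ended at most 1 call. Among the 33, directions held wherever a ratio could be fitted with a library left out, except that AT1G53885 had a ratio of -0.84 without N2. A fit with genotype alone, in which the differences between rounds count as spread, called 0 genes by edgeR, with 78 higher and 132 lower at an unadjusted p under 0.05.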

How the data were processed

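The deposited table holds counts of reads per gene, which the authors made with CLC Genomics Workbench 10 on TAIR10 from directional libraries. How reads that fit several genes were counted is not given in the sources used here. Whole-number counts were used as deposited. Left aside were 24 columns of normalized values by the authors and 4 columns of 1 library with no match among the samples. Genes were filtered by genotype with edgeR 4.0.16 (filterByExpr, 20382 of 28496 kept, transgene included), scaled by TMM and tested in R 4.3.3 with edgeR's quasi-likelihood test in a model of genotype and round over all 8 libraries (3 residual degrees of freedom), with Benjamini-Hochberg adjustment and calls at an adjusted p under 0.05. The round was read from the order of the library codes, which the labels do not explain; log2 CPM correlated at 0.9853 to 0.9901 between libraries of a round and at 0.9316 to 0.9703 between rounds. No pair of libraries agreed within sampling noise (chi-square per degree of freedom at least 15.9). The procedure was tested on simulated data. Low counts were compared through a floor of 3 counts, and intervals (95%, exact, from counts) cover counting error only. Promoters of 300 bases were read from TAIR10.1 with Python 3.11.15. Alternatives were genotype alone (no round), the 5 libraries of both genotypes, DESeq2 1.42.0, RLE factors, a minimum fold of 1.5, edgeR's likelihood ratio test, all genes with a count, and each library left out; counts over the glucosinolate and suberin lists under these were added after seeing the data. The members, the gene lists and the chromosome 5 stretch were chosen with earlier results of these data known. Named genes are *MYB5*, all called genes, those the study's text names and, per list, at most 4 with the lowest p. Full statistics were kept for called genes with the strongest changes whose level averaged 1 CPM or more in rounds 1 and 2. Other genes are given as neighbours, copies or parts of a list.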

Additional observations from a re-analysis of the deposited data

Results flagged for a closer look

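The test of *TT2* OE against *MYB5* OE, made in the same model for the named genes, found 7 that differed between the overexpressors, leaving aside the transgenes *MYB5* and *TT2* (edgeR quasi-likelihood test, adjusted over all tested genes). Tannin genes were higher in *TT2* OE. *BAN* had 80, 35 and 51 counts in *TT2* OE (O2, R2 and U2), against 0 and 1 in *MYB5* OE (N2 and Q2), and the fitted log2 ratio of 6.43 rests on that single count (adjusted p = 0.0168). *DFR* had 3.03, 3.62 and 4.01 CPM in *TT2* OE, against 0.1 and 0.347 CPM in *MYB5* OE, a log2 ratio of 4.16 (adjusted p = 0.022). All *TT2* OE libraries lay above both of *MYB5* OE for this pair of genes.

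The other 5 genes were lower in *TT2* OE. *ICK5* had 1.36, 2.78 and 2.84 CPM in *TT2* OE, against 3.03 and 9.91 CPM in *MYB5* OE, a log2 ratio of -1.48 (adjusted p = 0.0176). *AGP24* had 31.5, 37.8 and 33.4 CPM in *TT2* OE, against 45.8 and 60.7 CPM in *MYB5* OE, a log2 ratio of -0.64 (adjusted p = 0.0309). *PR1* had 1, 0 and 0 counts in *TT2* OE, against 121 and 37 in *MYB5* OE, and its fitted log2 ratio was -7.38 (adjusted p = 0.000581). These 3 genes were lower in every *TT2* OE library than in either *MYB5* OE library. AT1G29951 had 0, 11 and 0 counts in *TT2* OE, against 0 in N2 and 393 in Q2, with a fitted log2 ratio of -4.94 (adjusted p = 0.0114). AT1G53885 had 0 counts in all 3 *TT2* OE libraries, against 124 in N2 and 0 in Q2, and its fitted log2 ratio of -15.77 (adjusted p = 0.0011) depends on the prior count and is no bound. The values of the last pair rest on 1 *MYB5* OE library each.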

How the results depend on the processing

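The round term acts as a replicate block, and without it 0 genes were called higher and 0 lower, while *SCPL10* changed sign to 0.17. The number of calls, 14 higher and 19 lower as reported, moved to 73 and 70 with only the 5 libraries of *MYB5* OE and Col-0, 60 and 85 with DESeq2, 111 and 185 with the likelihood ratio test, 43 and 57 without a filter on low counts, and 2 and 1 with a minimum fold of 1.5. Of the reported calls these lists held 12 and 19 (5 libraries), 12 and 19 (DESeq2), and 14 and 19 (likelihood ratio test and no filter). RLE factors gave 20 and 21. With 1 library left out, calls ran from 0 to 39 higher and 2 to 40 lower, the lowest without P2 and the highest without S2. Log2 ratios that changed sign with a library left out ranged from -0.84 to 8.89 for AT1G53885, -0.01 to 0.11 for *TTG1*, -0.39 to 3.65 for *BAN*, -0.22 to 3.06 for *DFR*, -0.75 to 0.90 for *LDOX* and -0.08 to 1.03 for *TRY*. The cause of these changes was not tested. Glucosinolate genes higher at an unadjusted p under 0.05 numbered 6 to 14 and suberin genes lower 6 to 12 with a library left out. Depth limits *BAN*, *DFR* and *LDOX*, whose counts were low in all 5 libraries. For *BAN*, with 1 count in the 5 libraries, these fitted ratios measure no change. The comparison rests on 2 overexpressor libraries, and the labels do not name their transgenic line.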
